A study of Mus musculus with 13 samples.

Results

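The integrated stress response is read here through 10 transcripts, Atf4, Atf3, Ddit3, Chac1, Trib3, Ppp1r15a, Asns, Slc7a11, Sesn2 and Ddit4, which were taken by name from the 13222 genes listed for the series. All 10 passed the filter on low counts and were among the 12319 genes tested. The cells were 4T1-Thy1.1, a mouse triple-negative breast cancer line carrying a Thy1.1 transgene in every group, grown to 25% confluency in culture wells without any host tissue. They were left untreated (control, n = 3) or were exposed for 48 hours to 200 ng/mL of doxorubicin (DOX, n = 4), an anthracycline that poisons topoisomerase II, to 25 ng/mL of recombinant mouse IL-17A (n = 3), an inflammatory cytokine, or to both at these doses (DOX+IL-17A, n = 3). RNA was measured by 3′ end sequencing, which reads the tail end of each transcript, and values are given as TMM-normalized signal, that is, reads divided by the TMM-scaled library size and put on a common scale. The questions were which of these transcripts moved with DOX, and whether IL-17A altered that response.

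In the integrated stress response, kinases that sense amino acid shortage, misfolded protein, double-stranded RNA or lack of heme phosphorylate the translation factor eIF2, which lowers general protein synthesis while favoring translation of a few messages. The best known of these encodes ATF4, a transcription factor that is controlled largely at the level of translation and that switches on genes for amino acid supply, redox balance and, under lasting stress, cell death. ATF4 partners include C/EBP family proteins, and such pairs bind a composite C/EBP-ATF element.

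Promoter sequences are shown first because such a site is what several of these genes are known to share. In the RefSeq promoter windows of mouse build GRCm38.p6, which span 250 bases before to 50 bases after the annotated start, all 10 genes were matched. The C/EBP-ATF motif TGATGNAA, searched on both strands, lay in the window of 5 of the 10 genes and in 3.97% of 32851 promoters. Counting only the bases before the RefSeq start, it lay in 4 of the 10 and in 3.45% of promoters. The stretches around the matches read as follows, each 5′ to 3′ along the gene, with the motif or its reverse complement in capitals.
Atf3, chr1:191183410-191183469, minus strand: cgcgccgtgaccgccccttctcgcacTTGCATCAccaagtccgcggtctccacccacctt
Chac1, chr2:119351023-119351082, plus strand: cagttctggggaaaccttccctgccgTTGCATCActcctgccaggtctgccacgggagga
Trib3, chr2:152344031-152344060, minus strand: agattagctcaggtTTACATCAgccgggcg
Slc7a11, chr3:50443637-50443696, minus strand: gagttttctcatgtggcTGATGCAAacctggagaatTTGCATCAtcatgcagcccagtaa
Asns, chr6:7693210-7693269, minus strand: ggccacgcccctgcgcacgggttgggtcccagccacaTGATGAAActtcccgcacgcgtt

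Slc7a11 held a pair of matches in opposite orientation, beginning 66 and 47 bases before the start, and the Trib3 match began at base 15 after it. The windows of Atf4, Ddit3, Sesn2, Ddit4 and Ppp1r15a held no match to these letters. Ppp1r15a instead held the full cAMP response element TGACGTCA, the site that ATF and CREB proteins share, which lay in 1.79% of promoters and in none of the other 9 windows. Its stretch is shown with that element in capitals.
Ppp1r15a, chr7:45526269-45526328, minus strand: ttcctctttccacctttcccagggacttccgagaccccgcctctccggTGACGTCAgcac

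The ER stress element, a longer motif searched under that name, was found in 0 of the 10 windows and in 0.119% of promoters. A match describes letters only, and binding was not measured.

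**Figure D1:**
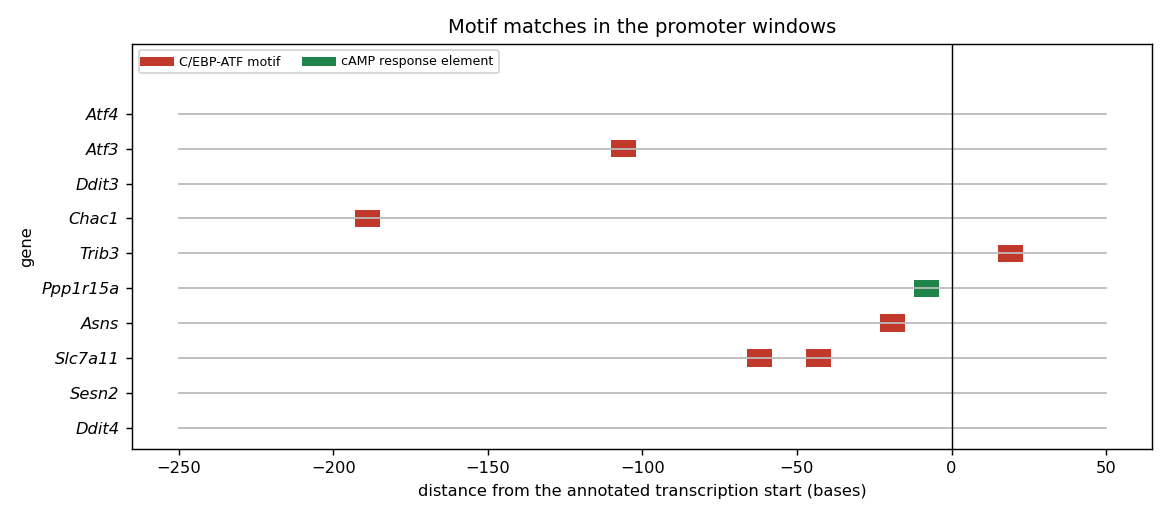
Motif matches in the promoter window of each gene, plotted by distance in bases from the annotated transcription start (vertical line); grey lines span the window from 250 bases before to 50 bases after. Atf3, Chac1, Trib3, Asns and Slc7a11 carry C/EBP-ATF matches and Ppp1r15a carries the cAMP response element.

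The 13 libraries held 4445592 to 16930600 reads on listed genes, so that 3 reads, the limit that a count of 0 allows, corresponded to 0.183 to 0.613 units of signal. Control replicate 1 stood apart on the second principal component, at 74.7 against -42.9 to 23.4 for the others. It was also the control nearest to the DOX libraries for several of the 10 genes, so some values are given without it too. The summed level of 6 mammary epithelial markers, all present, was 1932 to 2248 in control, 1706 to 2050 with IL-17A, 935 to 1034 with DOX and 816 to 1033 with DOX+IL-17A. The 6 skeletal muscle markers summed to 213 in DOX replicate 1 and to 8.84 to 37.9 in the other libraries, and the 3 red blood cell markers that were analysed summed to 66.5 there and to at most 14.4 elsewhere. The 3 immune markers that were analysed, out of 7, summed to 19.3 to 19.8 in control, 25.6 to 48.5 with DOX, 32.4 to 56.0 with DOX+IL-17A and 12.5 to 19.6 with IL-17A. Fibroblast markers, 5 of 6 analysed, were highest in control replicate 1 at 143 and lay between 27.9 and 78.1 elsewhere, while the only liver marker analysed, Alb, did not exceed 2.25. The part of these markers in the results was not tested, and in bulk RNA fewer cells of a kind and less RNA per cell cannot be told apart.

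With DOX, most of the stress response transcripts rose, but Atf4 itself did not pass the test and Ddit4 fell. A gene was called in limma where its fold was above 2 with an adjusted p under 0.05. By that rule 6 of the 10 genes were higher with DOX than in control, where 9.15% of all genes tested were, and 1 of the 10 was lower, where 6.18% were. Their median log2 fold change was 1.42, against 0.09 over all genes. The DOX and control libraries did not overlap for 6 of the 10, all higher with DOX, as was the case for 18.5% of all genes, and for none of them were the DOX libraries all lower, against 15.2%. Without control replicate 1, or without both it and DOX replicate 1, the counts were again 6 higher and 1 lower, and without DOX replicate 1 alone they were 7 and 1.

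**Figure D2:**
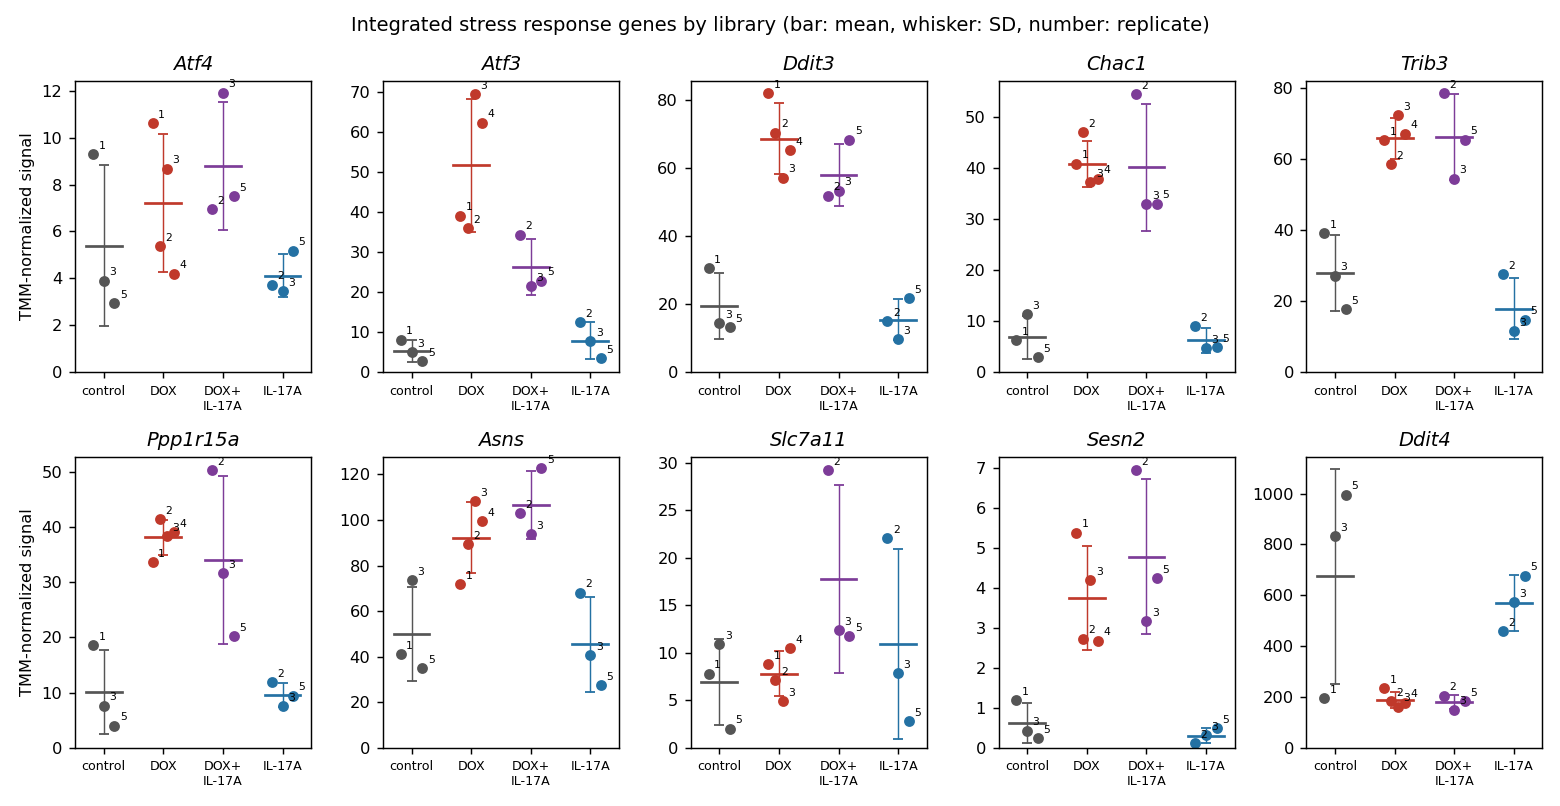
TMM-normalized signal (vertical axes, linear from 0) of each gene in every library of the 4 groups; points are libraries labelled by replicate number, bars are means and whiskers SD (n = 3, 4 for DOX). For Atf3, Ddit3, Chac1, Trib3, Ppp1r15a and Sesn2 every library with DOX lies above every library without it; Ddit4 runs the other way except in control replicate 1.

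Atf4 (chr15:80255184-80257541, GRCm38) encodes the transcription factor at the center of the response. Its signal was 9.30, 3.90 and 2.95 in control replicates 1, 3 and 5, and 10.6, 5.36, 8.67 and 4.20 in DOX replicates 1 to 4. The groups overlapped, since control replicate 1 was above all but 1 DOX library. The log2 fold change was 0.42 (SE 0.39, 95% interval -0.41 to 1.25, adjusted p = 0.46), and without control replicate 1 it was 0.83 (adjusted p = 0.14). A change inside this interval could not be resolved. Atf4 rested on 22 to 132 reads per library, and the part of depth in the width of the interval was not tested.

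Atf3 (chr1:191170296-191218039), a related factor that is itself induced by ATF4 and by DNA damage signals, had the largest fitted log2 fold change of the 10. Its signal was 8.12, 4.93 and 2.71 in control and 39.1, 36.0, 69.5 and 62.4 with DOX. Even the lowest DOX library was above the highest control, and the means were 51.8 ± 16.7 (SD, n = 4) against 5.25 ± 2.72 (SD, n = 3). The log2 fold change was 3.12 (SE 0.40, adjusted p = 0.00014).

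Ddit3 (chr10:127290774-127296288) encodes CHOP, the factor tied to death under lasting ER stress. It was at 30.6, 14.3 and 13.2 in control and 82.0, 70.4, 57.2 and 65.3 with DOX, again without overlap. The log2 fold change was 1.86 (SE 0.31, adjusted p = 0.00087), or 2.23 without control replicate 1. Ddit3 overlaps Mars and Gm4189 on the opposite strand, and whether counting used strand was not stated in the sources used here. It also overlaps another gene model named Ddit3 on its own strand. Other same-strand overlaps were those of Sesn2 (Gm12981) and Slc7a11 (Gm37692 and Gm37498). Atf3 and Slc7a11 also overlap genes on the opposite strand. The part of these overlaps in the counts was not tested.

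Chac1 and Trib3 are classical targets downstream of ATF4 and CHOP. Chac1 (chr2:119351229-119354381), an enzyme that degrades glutathione, was at 6.26, 11.3 and 2.95 in control and at 40.8, 47.0, 37.2 and 37.8 with DOX. The DOX libraries lay close together and well above control, with a log2 fold change of 2.55 (SE 0.36, adjusted p = 0.00025). Trib3 (chr2:152337422-152344032), a pseudokinase that restrains ATF4 and AKT, was at 39.1, 27.1 and 17.7 in control and at 65.3, 58.6, 72.4 and 67.2 with DOX. Its log2 fold change of 1.27 (SE 0.30, adjusted p = 0.0076) fell to 0.99, under the fold threshold, without control replicate 5.

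Ppp1r15a (chr7:45522916-45526268) encodes GADD34, the phosphatase subunit that reverses eIF2 phosphorylation and closes the feedback loop. Its signal was 18.6, 7.61 and 4.01 in control and 33.6, 41.4, 38.3 and 39.0 with DOX, without overlap. The log2 fold change was 2.04 (SE 0.39, adjusted p = 0.0024), and it was 2.57 without control replicate 1. Ppp1r15a overlaps Tulp2 on the opposite strand.

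Asns and Slc7a11 serve amino acid supply, and neither was called with DOX. Asns (chr6:7675169-7693254), which makes asparagine, was at 41.1, 73.6 and 35.0 in control and at 71.9, 89.4, 108 and 99.5 with DOX. DOX replicate 1 was just under control replicate 3, and the log2 fold change of 0.93 (SE 0.30, adjusted p = 0.036) was under the fold threshold. It was 1.24 without control replicate 3, 1.04 without DOX replicate 1, and 0.83 without control replicate 1, where the adjusted p was 0.072. Slc7a11 (chr3:49892526-50443614), the cystine importer that feeds glutathione synthesis, was at 7.78, 10.9 and 2.0 in control and at 8.77, 7.12, 4.89 and 10.5 with DOX. The groups overlapped throughout, and the log2 fold change was 0.33 (95% interval -0.88 to 1.54, adjusted p = 0.71).

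Sesn2 and Ddit4 both encode stress-induced inhibitors of mTORC1, the kinase complex that drives growth, and they moved in opposite directions. Sesn2 (chr4:132492032-132510501) was at 1.18, 0.426 and 0.236 in control, from 2 to 7 reads per library, and at 5.39, 2.74, 4.19 and 2.68 with DOX, from 25 to 67 reads. Its log2 fold change on the log2(value + 1) scale was 1.56 (SE 0.35, adjusted p = 0.0064), which understates so low a gene. From 152 pooled DOX reads and 16 pooled control reads the ratio of rates was 7.34, with an exact 95% interval of 4.38 to 13.2 that covers counting error only. Ddit4 (chr10:59949669-59951834), also known as REDD1, was at 195, 833 and 996 in control and at 235, 183, 161 and 177 with DOX. Control replicate 1 lay within the DOX range, while both other controls were more than 3 times as high as any DOX library. Ddit4 fell by 1.54 on the log2 scale (SE 0.40, adjusted p = 0.013), by 2.28 without control replicate 1 (adjusted p = 3.3e-06), and by 1.11 without control replicate 5, where the adjusted p was 0.074. The direction was the same in each case.

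**Figure D3:**
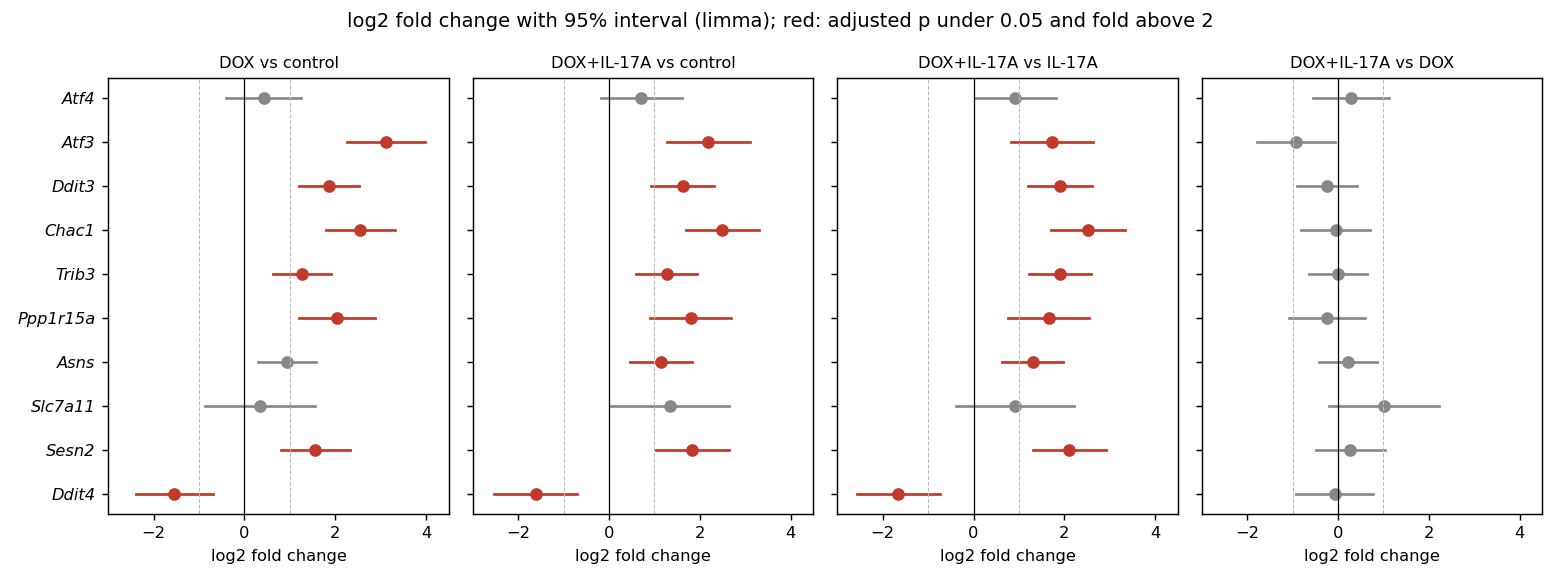
log2 fold change (horizontal axis) with its 95% interval from limma for each of the 10 genes in 4 comparisons; red marks an adjusted p under 0.05 with a fold above 2, and dashed lines mark a fold of 2. In the last panel, DOX+IL-17A against DOX, no gene is red and Atf3 is the one gene whose interval does not cross 0.

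With both agents the same picture was seen against control. Here 7 of the 10 genes were higher, against 6.95% of all genes tested, and 1 was lower, against 5.95%. Their median log2 fold change was 1.48, and it was 0.04 over all genes. For 8 of the 10 every DOX+IL-17A library exceeded every control, as was so for 15.6% of genes, and for none was the reverse seen, against 14.5%. DOX and DOX+IL-17A were compared with the same control libraries, so these counts are not independent of those above. Without control replicate 1 the counts were the same. Leaving out control replicate 5 or DOX+IL-17A replicate 2 instead lowered the total of 8 to 5. The calls over all genes in these fits were 1163 and 1152, against 1589 with all libraries.

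The values in DOX+IL-17A replicates 2, 3 and 5 were 34.4, 21.5 and 22.9 for Atf3, which gave a log2 fold change of 2.19 over control (SE 0.43, adjusted p = 0.0035). Ddit3 was at 51.9, 53.4 and 68.4, with a log2 fold change of 1.62 (adjusted p = 0.0042). Chac1 was at 54.4, 32.9 and 33.0, with a log2 fold change of 2.50 (adjusted p = 0.00069). None of these 3 groups overlapped control. Sesn2 was at 6.95, 3.18 and 4.24, with a log2 fold change of 1.83 (adjusted p = 0.0047) and a ratio of pooled read rates of 8.33 (exact 95% interval 4.95 to 15.0). Ppp1r15a was at 50.3, 31.6 and 20.2 and Trib3 at 78.5, 54.4 and 65.5, with log2 fold changes of 1.80 (adjusted p = 0.0097) and 1.27 (adjusted p = 0.014). DOX+IL-17A replicate 2 was the highest of its group for both, and without it their adjusted p were 0.051 and 0.057; that of Trib3 was 0.067 without control replicate 5.

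Asns, at 103, 93.8 and 123, passed both thresholds here, with a log2 fold change of 1.14 (adjusted p = 0.023). This call was lost without control replicate 5 (adjusted p = 0.094), without DOX+IL-17A replicate 2 (0.057) or without DOX+IL-17A replicate 5 (0.068). Slc7a11 was at 29.2, 12.4 and 11.7, all above the highest control at 10.9, but the log2 fold change of 1.35 (95% interval 0.05 to 2.64) had an adjusted p of 0.14. Atf4 was at 6.95, 11.9 and 7.49, with a log2 fold change of 0.71 (95% interval -0.18 to 1.60, adjusted p = 0.26). Ddit4 was at 205, 149 and 184 and fell by 1.61 (adjusted p = 0.018), or by 2.35 without control replicate 1. Its adjusted p was 0.057 without control replicate 3, 0.085 without control replicate 5 and 0.069 without DOX+IL-17A replicate 3.

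Against cells given IL-17A alone, DOX+IL-17A gave 7 genes higher and 1 lower of the 10, where 4.92% of all genes tested were higher and 4.92% lower. The median log2 fold change was 1.69. On the log2(value + 1) scale the change was 2.52 for Chac1 (SE 0.38, adjusted p = 0.0011), 2.11 for Sesn2, 1.91 for Trib3, 1.90 for Ddit3, 1.73 for Atf3, 1.65 for Ppp1r15a and 1.30 for Asns, with adjusted p from 0.0019 to 0.019 for the 6 genes after Chac1. For Sesn2, which this scale understates, the ratio of pooled read rates was 13.2 (exact 95% interval 6.74 to 29.5), from 134 reads against 9, and for Chac1 the ratio of the mean signals was 6.47. Ddit4, at 458, 572 and 676 with IL-17A alone, did not overlap DOX+IL-17A in this comparison, as 15.5% of genes did not in that direction, and fell by 1.65 (adjusted p = 0.02). Atf4, at 3.72, 3.46 and 5.17 with IL-17A alone, also did not overlap, as was so with the DOX+IL-17A libraries higher for 16.4% of genes, and its log2 fold change was 0.92 (95% interval 0.02 to 1.81, adjusted p = 0.16). The count of 8 fell to 5 without IL-17A replicate 3, to 4 without IL-17A replicate 5, and to 6 without DOX+IL-17A replicate 2 or 3. Over all genes the calls fell from 1212 to 689, to 769 and to 828 in the same order. Ppp1r15a, Asns, Ddit4 and Atf3 each lost the call in at least 1 of these 4 fits, with adjusted p from 0.051 to 0.085.

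Adding IL-17A to DOX moved none of the 10 genes past the thresholds, where 0.438% of all genes tested passed. In limma the lowest adjusted p was 0.71, and an unadjusted p under 0.05 was seen for 1 of the 10, compared with 6.35% of all genes. None was called by voom, edgeR or DESeq2 either. That gene was Atf3, which was lower in all 3 DOX+IL-17A libraries than in any DOX library, an arrangement seen for 5.61% of genes. Its mean was 26.3 ± 7.03 (SD, n = 3) against 51.8 ± 16.7 (SD, n = 4), a log2 fold change of -0.93 (95% interval -1.78 to -0.07, unadjusted p = 0.035, adjusted p = 0.71 in limma). Leaving out 1 library at a time gave -1.13 to -0.77. Slc7a11 was the reverse, with all 3 DOX+IL-17A libraries above all 4 DOX libraries, which 4.66% of genes showed, and a log2 fold change of 1.01 (95% interval -0.20 to 2.23, adjusted p = 0.94). Without DOX+IL-17A replicate 2, its highest library, this was 0.61.

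For the other 8 genes DOX and DOX+IL-17A overlapped, and the intervals of the difference set what could have been missed. The 95% interval was -0.64 to 0.63 for Trib3, -0.81 to 0.70 for Chac1, -0.89 to 0.41 for Ddit3, -0.42 to 0.85 for Asns and -0.92 to 0.78 for Ddit4, so that for these 5 a further change of 2-fold in either direction lay outside it. It was -1.08 to 0.59 for Ppp1r15a, -0.48 to 1.03 for Sesn2 and -0.54 to 1.12 for Atf4, so that for these 3 it reached past a 2-fold change in 1 direction.

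IL-17A alone did not move the 10 genes past the thresholds either. In limma 0 of the 10 were called, where 1 gene, or 0.00812% of those tested, was called higher, and 0 had an unadjusted p under 0.05, compared with 3.08% of all genes. The count was also 0 by voom, edgeR and DESeq2. The lowest unadjusted p was that of Trib3, at 27.5, 11.5 and 14.7 with IL-17A, with a log2 fold change of -0.64 (95% interval -1.32 to 0.04, adjusted p = 0.96). Atf3 was at 12.5, 7.70 and 3.45, Ddit3 at 15.0, 9.59 and 21.7, and Chac1 at 9.01, 4.72 and 4.84, all overlapping control. Ppp1r15a was at 11.8, 7.55 and 9.43 and Asns at 68.0, 40.6 and 27.4. Slc7a11 was uneven within this group, at 22.1, 7.86 and 2.79, and Sesn2 was at 0.113, 0.314 and 0.492, from 1 to 6 reads.

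The test of whether DOX acted differently in the presence of IL-17A, the interaction term, called 0 of the 10 genes and 0% of all genes at an adjusted p under 0.05 in limma, and also 0 of the 10 by voom, edgeR and DESeq2. At an unadjusted p under 0.05 it picked 4.51% of all genes and 1 of the 10, Atf3, whose log2 fold change under DOX was smaller by 1.39 with IL-17A than without (interaction -1.39, 95% interval -2.63 to -0.14, unadjusted p = 0.032, adjusted p = 0.90).

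**Figure D4:**
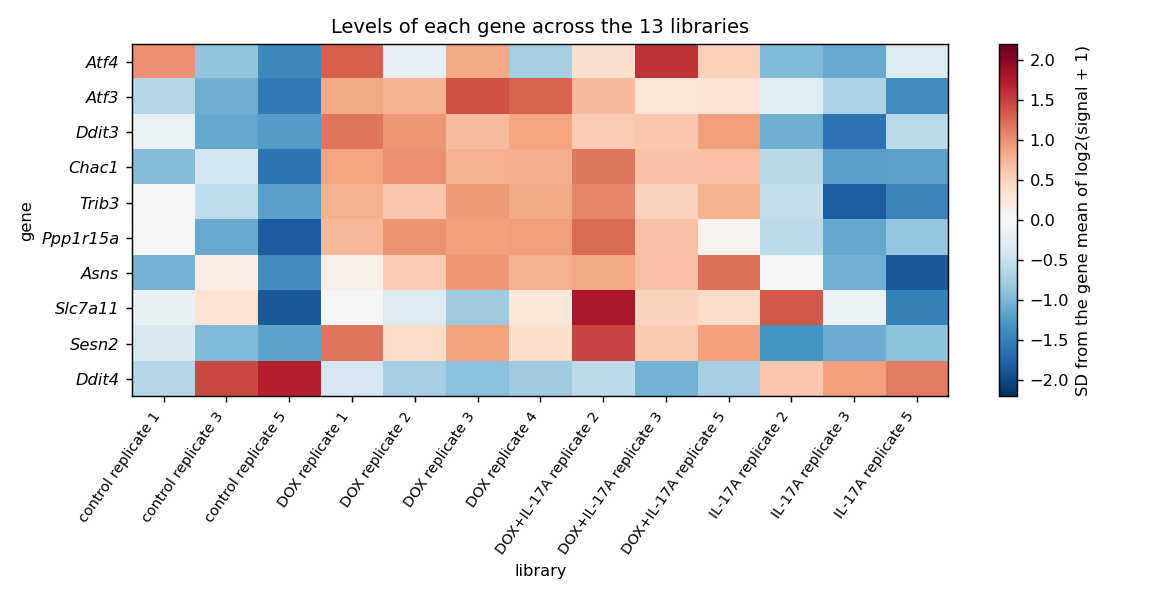
Each gene's log2(signal + 1) in the 13 libraries (columns, grouped by treatment), as SD from that gene's mean; red is higher and blue lower. The 7 libraries with DOX are red for most genes and blue for Ddit4, and control replicate 1 differs from control replicates 3 and 5 in Atf4 and Ddit4.

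Across libraries the 10 genes were not uniform. The mean z-score of the 9 genes other than Ddit4, on the log2 scale, was 0.54 to 0.78 in DOX and 0.65 to 1.03 in DOX+IL-17A, and -1.46 to -0.26 in control and -1.11 to -0.44 with IL-17A alone. After condition means were removed, Ddit4 had a Pearson correlation below 0 with each of the other 9 genes over the 13 libraries. The median was -0.55, but it was only -0.072 with Asns and -0.12 with Chac1. Of all 45 pairs, 30 were positively correlated. Chac1 and Slc7a11 were most alike (r = 0.83), and Ddit4 and Ppp1r15a most opposed (r = -0.74). These correlations share library depth and scaling and rest on few libraries, and they are given as a description. They include control replicate 1, which among the controls was lowest in Ddit4 (195) and highest in Ppp1r15a (18.6). No correlation given here or in the next paragraph was computed without that library.

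The genes found most like Atf4 were not those found most like the mean z-score of the 10 genes. Neighbors were sought only outside the 10 genes and the related lists, so none of the 10 could be named. Within the 10, the correlations of Atf4 after condition means were removed ran from -0.59 with Ddit4 to 0.62 with Ddit3. Whether the neighbors differ beyond chance was not tested. The tested genes outside the lists whose level over the 13 libraries was most like that of Atf4 were Npm3-ps1 (r = 0.95), Dnajc7 (0.93), 2610035D17Rik (0.92), Rab33b (0.91) and Las1l (0.90), with 0.85 to 0.94 after condition means were removed. Most like the mean z-score of the 10 genes were Bola3 (0.97), Slc25a10, Nop2, Plk3 and Slc16a6 (each 0.96), and here the values were 0.65 to 0.80 once condition means were removed.

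The genes around this group in the pathway were then read from 11 lists, whose counts stand against the 9.15% of all genes tested that were called higher with DOX and the 6.18% called lower. Without control replicate 1, 958 of the 12319 genes tested were called higher and 749 lower. Of the 4 kinases that phosphorylate eIF2, 1 rose with DOX, Eif2ak2, which encodes the double-stranded RNA sensor PKR. Its mean was 51.2 ± 17.9 (SD, n = 3) in control, 188 ± 35.4 (SD, n = 4) with DOX and 102 ± 29.3 (SD, n = 3) with DOX+IL-17A. Over control this was a log2 fold change of 1.89 for DOX (adjusted p = 0.00028) and of 0.99 for both agents (adjusted p = 0.027), and between DOX+IL-17A and DOX it was -0.90 (adjusted p = 0.27). Of 12 subunits of eIF2, of its exchange factor eIF2B and of its phosphatases, Eif2b1 alone was called, at 16.9 ± 10.6 in control and 82.3 ± 15.0 with DOX (SD, log2 fold change 2.44, adjusted p = 0.00073). The medians of these 2 lists, 0.21 and 0.11, were near the 0.09 of all genes.

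Among the 7 bZIP partners and co-regulators tested, 2 rose with DOX and both are C/EBP proteins. Without control replicate 1 the count was 3 higher and 0 lower. Cebpg, the usual heterodimer partner of ATF4, rose from 41.3 ± 15.9 to 103 ± 16.8, by 1.35 on the log2 scale (adjusted p = 0.0037). Cebpd, which is also a target of inflammatory cytokines, was at 2.98 ± 1.23 in control, 24.2 ± 15.2 with DOX, 18.7 ± 16.8 with IL-17A and 87.6 ± 42.7 with both. Over control it rose by 2.49 on the log2 scale in DOX cells (adjusted p = 0.0057) and by 4.40 where both agents were given (adjusted p = 0.00033), while DOX+IL-17A against DOX gave 1.91 (adjusted p = 0.26).

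Enzymes of amino acid synthesis and one-carbon metabolism, a textbook output of ATF4, gave 4 of 14 genes higher and 1 lower with DOX, with a median of 0.78. Shmt2, Psph and Got1, which act in glycine, serine and aspartate metabolism, had log2 fold changes of 1.25 (adjusted p = 0.004), 1.24 (0.049) and 1.18 (0.018). Mthfd1l, a mitochondrial folate enzyme, fell from 177 ± 83.2 to 37.2 ± 6.18, a log2 fold change of -2.14 (adjusted p = 8.3e-05). Without control replicate 1, the count was 2 higher and 1 lower, and Psph and Got1 were at 1.05 (adjusted p = 0.11) and 0.94 (0.053). With DOX+IL-17A against control 5 were higher and 1 was lower, or 3 and 2 without control replicate 1.

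Of 9 amino acid transporters 2 were higher and 1 lower with DOX, with a median of 0.67. Slc3a2, the partner chain of Slc7a11, rose with a log2 fold change of 1.49 (adjusted p = 0.02) that was 0.82 (0.058) without control replicate 1, and the glutamine carrier Slc1a5 rose by 1.13 (0.004). Slc38a7 fell by 1.18 (adjusted p = 0.033), or by 0.87 (0.12) without control replicate 1. Among 20 cytosolic aminoacyl-tRNA synthetases, which charge transfer RNA with amino acids, 4 were higher and 0 lower with DOX and the median was 0.58. Wars, Aars and Hars had log2 fold changes of 1.63 (adjusted p = 0.00024), 1.58 (0.001) and 1.19 (0.0096), and with DOX+IL-17A of 1.73, 1.44 and 1.30. Hars, at 0.87 with DOX, was under the fold threshold without control replicate 1, and the count for the list was 5 higher and 0 lower.

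Other stress effectors were split, with 3 of 12 higher and 2 lower. Herpud1, an ER degradation factor, Stc2, a secreted glycoprotein, and the death receptor Tnfrsf10b had log2 fold changes of 1.5 (adjusted p = 0.0036), 1.42 (0.011) and 1.16 (0.014). Tnfrsf10b was at 0.68 (adjusted p = 0.032), under the fold threshold, without control replicate 1, and the count was 2 higher and 2 lower. Ero1l, an ER oxidase, fell from 194 ± 67.7 to 48.0 ± 7.49 (log2 fold change -1.94, adjusted p = 9e-05), and Vegfa, the vascular growth factor, fell from 46.8 ± 5.0 to 21.7 ± 5.16 (-1.09, 0.0098). Ero1l, Vegfa and Ddit4, named here because they fell, are all also known to be induced by hypoxia. No list of hypoxia genes was read, and the part of hypoxia was not tested. Of 21 genes for ER chaperones and for the IRE1 and ATF6 arms of the unfolded protein response, 4 were higher and 0 lower with DOX, or 2 and 0 without control replicate 1. The chaperone genes Calr, Hyou1 and Dnajb11 led at 1.66 (adjusted p = 0.0007), 1.43 (0.00062) and 1.26 (0.0042), of which Dnajb11, at 0.93, was under the fold threshold without control replicate 1. The 2 of 21 then called were near the share of all genes tested.

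Of 8 mitochondrial stress genes only Dele1, which relays mitochondrial stress to an eIF2 kinase, was called, lower with DOX at -1.01 (adjusted p = 0.036), and at -0.78 (0.11) without control replicate 1. None of 10 targets of the oxidative stress factor NRF2 was called with DOX, and their median was -0.60. Without control replicate 1, 2 of them were called lower. Of 11 p53 targets 2 were higher, the nuclease gene Aen at 2.16 (adjusted p = 0.0039) and the death receptor gene Fas at 1.48 (0.0062). No gene of the 11 lists was called between DOX+IL-17A and DOX or between IL-17A and control.

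**Figure D5:**
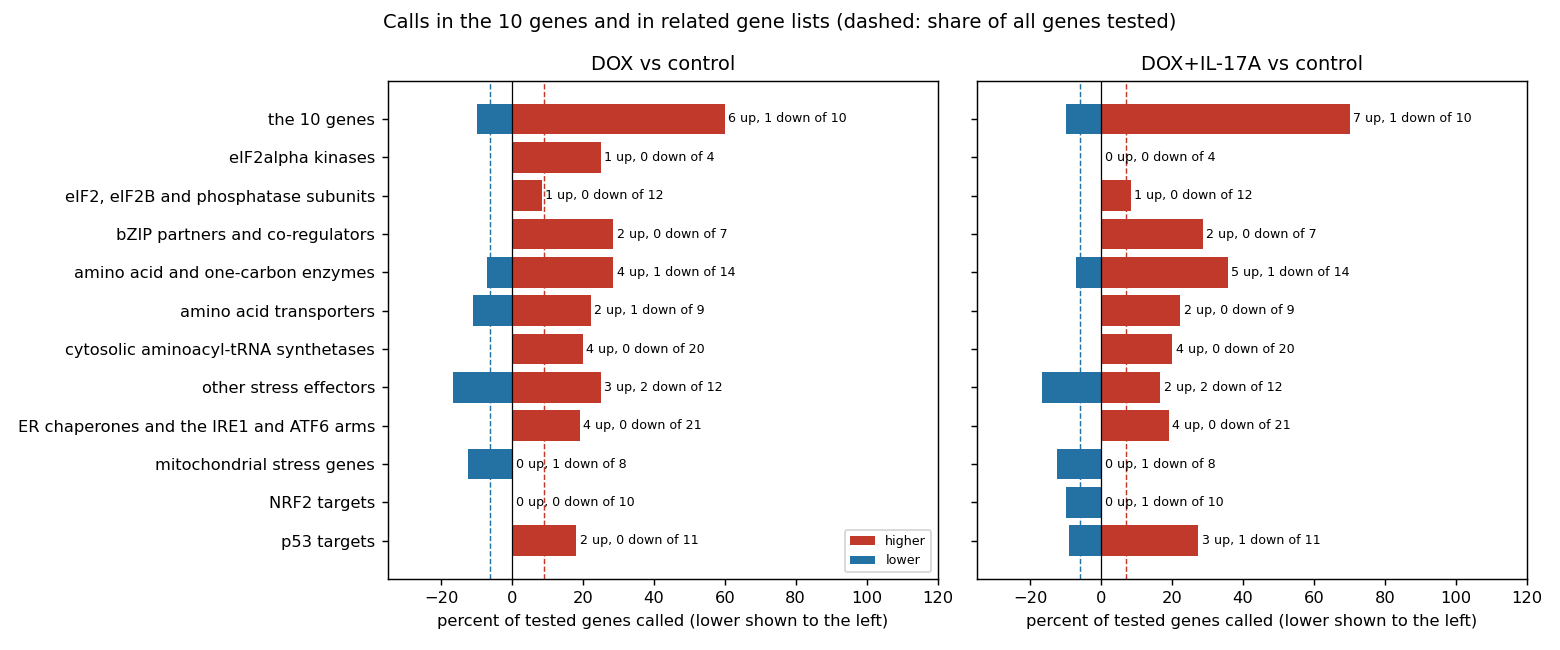
Percent of tested genes called higher (red, to the right) or lower (blue, to the left) in the 10 genes and in each of the 11 related lists, for DOX and for DOX+IL-17A against control; dashed lines mark the percent over all genes tested. The 10 genes, with 6 and 7 called higher, reach further right than each related list in both panels, and the lists hold 4 to 21 tested genes.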

How the data were processed

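Total RNA of 13 4T1-Thy1.1 samples was made into QuantSeq 3′ mRNA-Seq FWD libraries. Per the labels and the study's methods, the authors trimmed reads (Trimmomatic), aligned them to mm10 with STAR, counted them per gene with featureCounts and deposited TMM-normalized signal. Each column moves in steps of 1 read (100% of values within 0.1 read of a whole number), which gave back the reads, and TMM factors recomputed from them gave the same library sizes (ratio 1.00). The table held 13223 rows, of which 1 was an identical duplicate.

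The main test was limma 3.58.1 with trend on log2(value + 1), fitted to all 13 libraries and 12319 genes passing edgeR's expression filter, with Benjamini-Hochberg adjustment over all of them. A call needed an adjusted p under 0.05 and a fold above 2 (the interaction, the adjusted p alone). Alternatives were voom, edgeR 4.0.16, DESeq2 1.42.0, library size scaling, other filters, a pseudocount of 0.1, only the groups compared, a replicate block and leaving out each library. Leaving out control replicate 1 and DOX replicate 1 together was chosen after seeing the data. On data simulated for DOX against control over 12319 genes, limma recovered 142 of 200 genes changed 4-fold, with 10 false calls. Recovery of 2-fold changes, or of changes between DOX+IL-17A and DOX, was not simulated. Named genes were the 10, up to 3 called genes in each direction per list with the largest change under DOX, and the 5 nearest neighbors of Atf4 and of the mean z-score.

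The 10 genes and all lists were chosen with earlier results of these data known. The study's methods speak of biological replicates in general, and the labels do not say how these libraries were separated (cultures or days), so p-values measure the spread between these libraries, which may be technical. Gene positions are from GENCODE vM21 (GRCm38) and promoters from RefSeq, and these sources place some starts differently. The Atf3 and Asns matches, before the RefSeq start, lie inside the GENCODE gene. The Trib3 match, after the RefSeq start, lies before the GENCODE gene. Of 426 windows of 75 bases in the last 500 bases of each of the 10 genes, 0 were found in transcripts of genes outside the 10. Transcripts under the names of the 10 genes were not searched, and neither was the opposite strand.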

Additional observations from a re-analysis of the deposited data

How the results depend on the processing

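The number of the 10 genes called was 7 for DOX against control, 5 to 8 with 1 library left out and 7 to 8 under the other alternatives. In the fit that gave 5, without control replicate 5, the calls over all genes were 1512, against 1888 in the main fit. For DOX+IL-17A against control it was 8, with 5 to 8 when 1 library was left out, and 4 when only the groups compared were fitted. In that last fit the calls over all genes also fell, from 1589 to 599. Trib3, Asns, Ddit4 and Ppp1r15a then had adjusted p of 0.062, 0.069, 0.10 and 0.080, with fewer libraries behind the estimate of the spread. For DOX+IL-17A against IL-17A it was 8, with 4 to 8 when 1 library was left out. The fit that gave 4, without IL-17A replicate 5, called 769 of all genes, against 1212 in the main fit. The counts for DOX+IL-17A against DOX, for IL-17A against control and for the interaction were 0 under every alternative run. Library size scaling moved the median of all genes for DOX against control from 0.09 to 0.24, and the split of all calls from 1127 higher and 761 lower to 1516 and 488. No called gene of the 10 changed direction. Asns passed the fold threshold at 1.11 with DOX, a value from which the median of 0.24 over all genes was not taken off.

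No called value reversed. Uncalled values near 0 did for DOX+IL-17A against DOX, where leaving out 1 library gave -0.29 to 0.063 for Chac1, -0.14 to 0.13 for Trib3, -0.17 to 0.056 for Ddit4 and -0.57 to 0.07 for Ppp1r15a. There edgeR gave 0.0066 and DESeq2 0.026 for Trib3, and leaving out both doubted libraries gave 0.039 for Ddit4. Slc7a11 with DOX ran from -0.26 to 0.74. For IL-17A against control 24 of 230 alternative values changed sign, and for the interaction 25 of 220, none of them called; the cause was not tested.

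The labels give groups the same replicate numbers, which the main fit did not use to pair libraries. The correlation of deviations from condition means averaged 0.15 over the 13 same-numbered pairs of libraries (-0.18 to 0.49). Over the 50 pairs with different numbers it averaged -0.037 (-0.56 to 0.47). Of 12 libraries, 7 correlated best with their own number. Whether the numbers mark paired cultures was not tested. With the number as a replicate block, 7 of the 10 genes were called for DOX and 7 for DOX+IL-17A against control, Asns being lost at 0.96 (adjusted p = 0.070), and over all genes 837 were higher and 540 lower with DOX. The block turned uncalled values to 0.082 for Chac1, 0.21 for Trib3 and 0.16 for Ppp1r15a in DOX+IL-17A against DOX, and to -0.45 for Slc7a11 in DOX against control. It also moved the uncalled differences between DOX+IL-17A and DOX to -0.51 for Atf3 (limma adjusted p = 0.79) and 1.67 for Slc7a11 (0.27). Depth limits Sesn2 without DOX, and the part of depth in the spread of Atf4 was not tested.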
